A study of Homo sapiens with 16 samples.

Results

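This account follows 39 genes of autophagy, the lysosome and the FOXO transcription factors on 16 Affymetrix PrimeView arrays of Nalm6, an established line from a B-cell precursor leukaemia. The genes were listed by name for their roles, though with earlier results of these data known. All 39 were among the 18132 genes tested, and each is represented by the brightest of its probe sets that the platform annotation gives to a single gene. The 4 groups, with 4 arrays each, were cells labelled as overexpressing active CASP1 with prednisolone, the same cells untreated, control cells with prednisolone, and control cells untreated. Prednisolone, a synthetic glucocorticoid that the sample labels write as a prednisone compound, was given for 24 hours. The sources used here state neither its dose, nor how the CASP1 line was made, whether it is 1 clone, or what the control cells carry. By its title, the series concerns cleavage of the glucocorticoid receptor by CASP1, an inflammatory protease, and resistance of leukaemia cells to glucocorticoids. The CASP1 signal itself ran opposite to that label, with 5.69 ± 0.25 in untreated cells labelled CASP1 against 7.75 ± 0.15 in untreated control cells (log2, SD, n = 4), so every direction between the lines follows labels that this signal goes against.

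Autophagy encloses cytoplasm in a double membrane, the autophagosome, and delivers it to the lysosome, whose hydrolases degrade it. The ULK1 kinase complex starts the process, a lipid kinase complex built on BECN1 marks the site, and a conjugation system attaches small proteins of the Atg8 family to the growing membrane, where receptors bring the cargo. TFEB and TFE3 switch on lysosomal genes, and the FOXO factors, which AKT holds outside the nucleus when insulin or growth factor signals are strong, switch on genes of autophagy, of muscle protein breakdown and of the insulin pathway itself. In lymphoid cells FOXO1 is also needed for precursor B-cell development, and glucocorticoids are known inducers of several FOXO targets in muscle.

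The cells carried the markers of their label. The 9 measured precursor B markers had a median signal of 11.65 on the log2 scale, and no measured marker of T, myeloid, NK or erythroid cells exceeded 5.65, where array medians lay between 4.85 and 4.93. NR3C1, the glucocorticoid receptor gene, rose with prednisolone by 0.85 in cells labelled CASP1 and by 1.24 in control cells. Replicate 1 differed from replicates 2 to 4 in every group. Its correlation with them across genes was 0.985 to 0.994, against 0.996 to 0.998 among replicates 2 to 4, and among the 39 genes it lay up to 0.85 below the mean of the others (INSR, treated control cells) and up to 0.71 above it (AMBRA1, treated cells labelled CASP1). Counts are therefore given with and without the 4 arrays of replicate 1. In a bulk culture, fewer cells of a kind and less RNA per cell cannot be told apart.

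Prednisolone raised few of these genes in cells labelled CASP1 and more of them in control cells, and in neither line was any called lower. In limma's moderated test, adjusted over all 18132 genes and called at an adjusted p under 0.05, 4 of the 39 genes were higher with prednisolone in cells labelled CASP1, where 2.99% of all genes were higher and 3.35% lower (6.34% in either direction). In control cells 15 of the 39 were higher, where 5.73% of all genes were higher and 8.43% lower (14.2% in either direction). The median difference over the 39 genes was 0.09 in cells labelled CASP1 and 0.21 in control cells, while over all genes it was 0.02 and -0.01. Treated and untreated arrays did not overlap for 6 higher genes and 1 lower one, CCNG2, in cells labelled CASP1 (5.31% and 6.56% of all genes), and for 21 higher genes in control cells (9.07%). CTSB, FBXO32, ULK1 and TFEB were called higher in both lines, which was so for 2.16% of all genes, and of the 15 genes called in control cells 11 had a positive difference in cells labelled CASP1. Without replicate 1 the counts were 6 in cells labelled CASP1 (5.77% of all genes higher) and 19 in control cells (8.8% of all genes higher). With treated replicate 2 alone left out, the count in cells labelled CASP1 was 7, a setting for which no share of all genes is given.

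**Figure D1:**
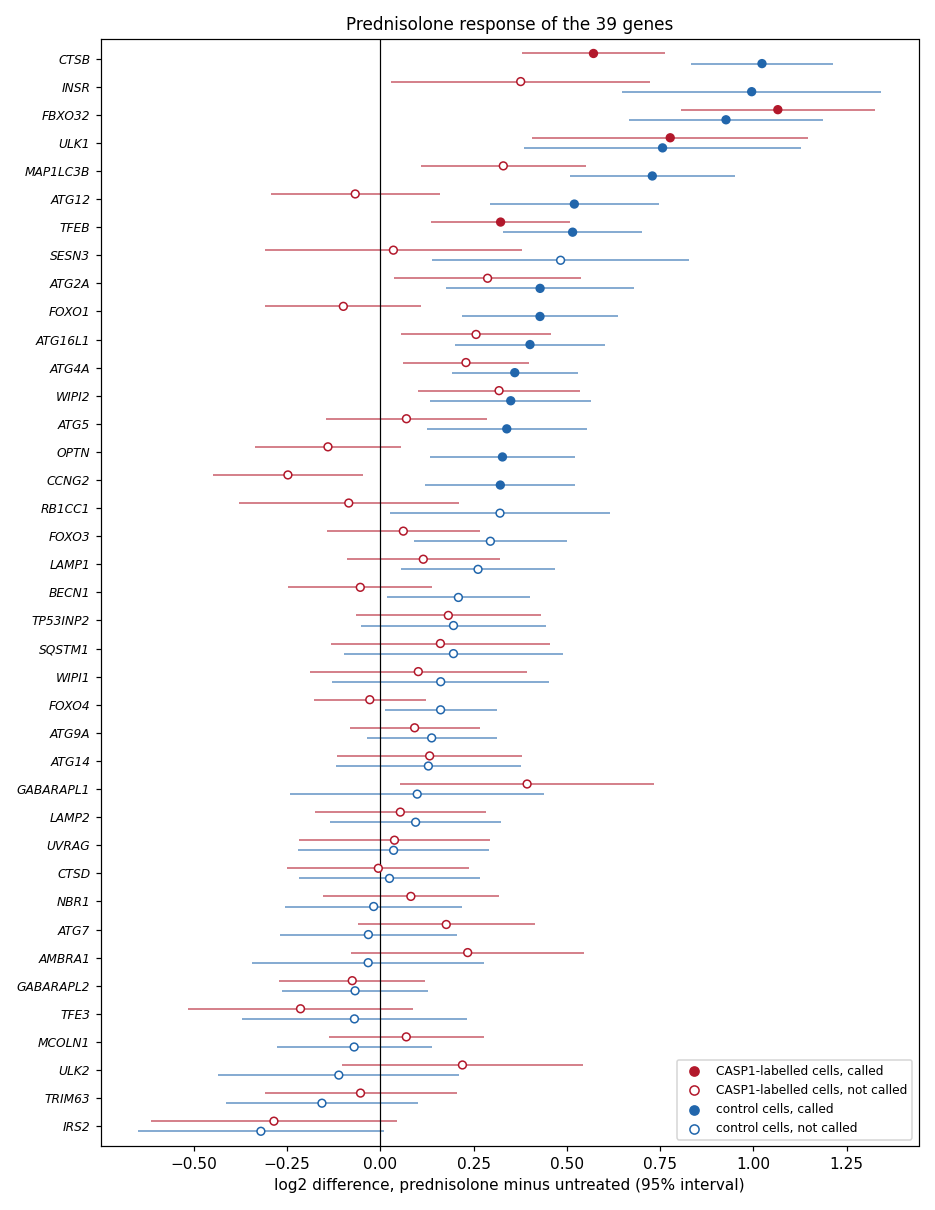
Log2 difference between prednisolone-treated and untreated cells (horizontal axis, with 95% intervals) for each of the 39 genes (vertical axis, ordered by the response of control cells), with cells labelled CASP1 in red above control cells in blue. Filled points passed an adjusted p under 0.05, which 4 genes did in cells labelled CASP1 and 15 in control cells, and no gene was called below 0.

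The lines also differed before treatment. In untreated cells 13 of the 39 genes were higher and 2 lower on the arrays labelled CASP1, where 5.87% of all genes were higher and 8.2% lower (14.1% in either direction). With prednisolone 6 were higher and 2 lower, against 7.88% and 8.52% of all genes (16.4% in either direction). The lines did not overlap for 18 higher genes and 1 lower one in untreated cells (9.89% and 11.8% of all genes) and for 6 higher genes and 1 lower one with prednisolone (10.1% and 9.56%). Without replicate 1 these counts were 17 higher and 2 lower in untreated cells (8.53% and 12.8% of all genes) and 8 higher and 4 lower in treated cells (11.6% and 10.8%). Leaving out replicate 1 of the treated control cells alone also gave 4 lower genes in treated cells. WIPI1, OPTN, SQSTM1, FBXO32, ATG2A and TP53INP2 were higher, and LAMP1 lower, in both comparisons of the lines. The largest difference was that of WIPI1, 2.08-fold higher in untreated cells labelled CASP1.

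**Figure D2:**
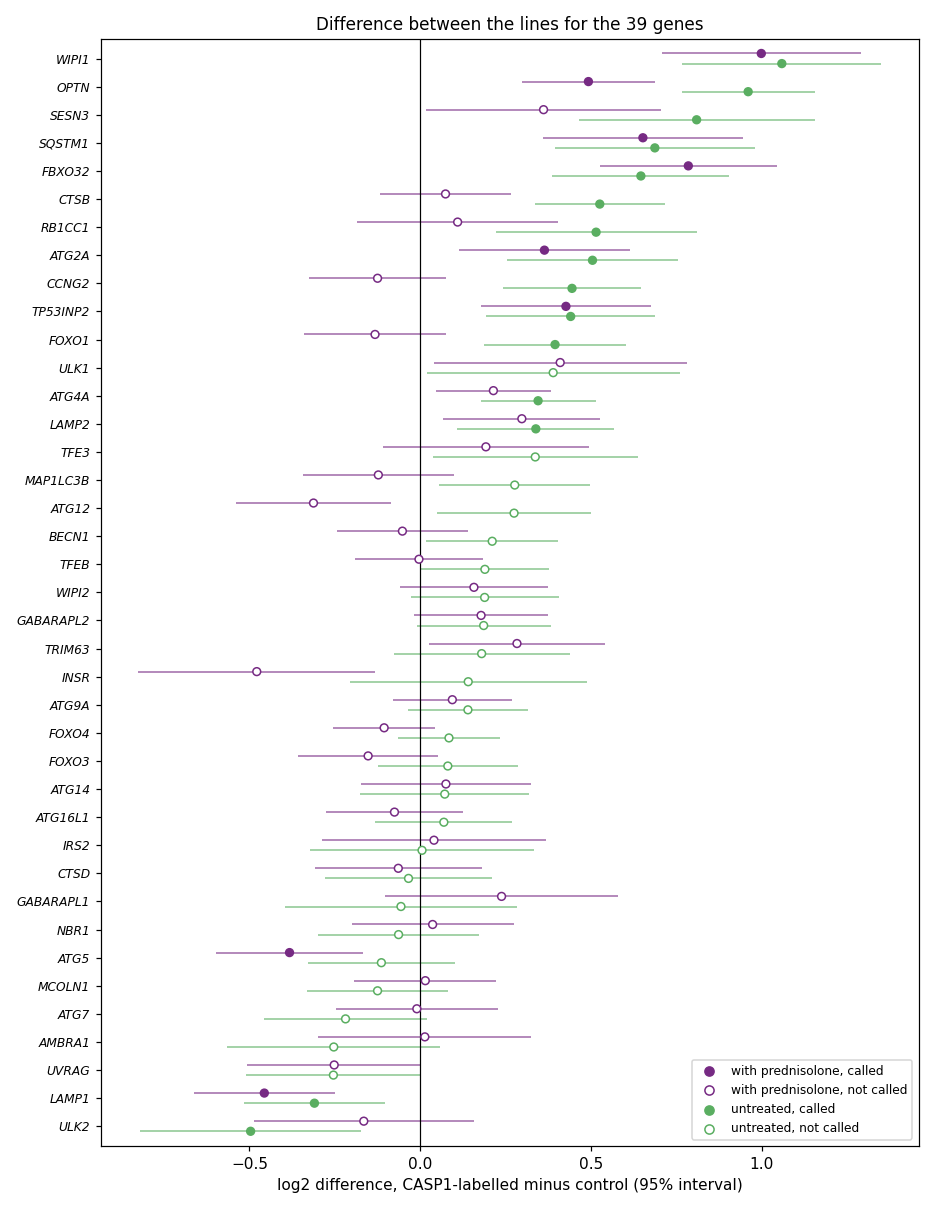
Log2 difference between cells labelled CASP1 and control cells (horizontal axis, with 95% intervals) for each of the 39 genes (vertical axis, ordered by the difference in untreated cells), with prednisolone in purple and untreated in green. Filled points passed an adjusted p under 0.05; WIPI1, SQSTM1 and FBXO32 are filled and above 0 in both conditions, and LAMP1 is filled and below 0 in both.

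Promoter sequences were read for 34 of the 39 genes from RefSeq (GRCh38.p14) as the 250 bases before the annotated start, on the gene's own strand, and none was used for CTSB, FBXO32, LAMP2, RB1CC1 or UVRAG. ULK1 and TFEB are shown because they rose in both lines, CCNG2 because its response had the lowest adjusted p in the interaction, and LAMP1 because it was lower in cells labelled CASP1. Capitals mark the E-box CACGTG, the core of the site that TFEB and TFE3 bind. The ULK1 stretch is chr12:131894372-131894621 on the + strand, that of TFEB chr6:41735609-41735858 on the - strand, that of CCNG2 chr4:77156957-77157206 on the + strand and that of LAMP1 chr13:113296989-113297238 on the + strand.
ULK1: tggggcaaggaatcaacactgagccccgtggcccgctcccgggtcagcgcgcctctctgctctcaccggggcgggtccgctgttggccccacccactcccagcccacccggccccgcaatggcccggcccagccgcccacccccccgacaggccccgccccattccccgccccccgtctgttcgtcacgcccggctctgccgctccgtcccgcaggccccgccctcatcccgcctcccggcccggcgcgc
TFEB: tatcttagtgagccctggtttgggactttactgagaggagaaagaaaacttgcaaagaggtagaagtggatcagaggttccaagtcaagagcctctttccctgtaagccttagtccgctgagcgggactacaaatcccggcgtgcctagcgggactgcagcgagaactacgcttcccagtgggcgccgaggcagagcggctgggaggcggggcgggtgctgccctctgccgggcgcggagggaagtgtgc
CCNG2: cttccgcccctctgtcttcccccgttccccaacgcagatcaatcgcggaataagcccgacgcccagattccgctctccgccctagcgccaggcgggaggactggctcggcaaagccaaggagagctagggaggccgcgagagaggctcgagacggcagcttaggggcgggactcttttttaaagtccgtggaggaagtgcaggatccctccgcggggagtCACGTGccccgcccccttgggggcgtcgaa
LAMP1: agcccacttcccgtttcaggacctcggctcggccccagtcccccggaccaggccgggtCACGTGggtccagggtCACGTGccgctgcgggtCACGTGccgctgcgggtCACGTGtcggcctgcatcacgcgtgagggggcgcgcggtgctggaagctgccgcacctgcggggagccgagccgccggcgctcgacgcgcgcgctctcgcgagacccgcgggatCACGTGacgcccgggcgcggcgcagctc
LAMP1 holds 5 E-boxes, which begin 192, 176, 159, 142 and 28 bases before the start, and CCNG2 holds 1, which begins 30 bases before it. Both strands were searched, and CACGTG, which reads the same on both, was present in 5 of the 34 promoters (ATG14, CCNG2, CTSD, LAMP1 and MCOLN1) and in 6.49% of 27305 RefSeq promoters. The longer CLEAR element, an E-box with GT before it and AC after it, was in MCOLN1 and in 0.33% of all promoters. The FOXO element GTAAACA was in 0 of the 34 and in 2.98% of all promoters, and the glucocorticoid response element, searched as GNACA and TGTNC with 3 bases between them, was in TRIM63 and in 0.33% of all. These letters describe the 250-base windows only. Of the 5 genes with an E-box, CCNG2 was the only one called for prednisolone, in control cells, and LAMP1 and CCNG2 were called between the lines in opposite directions.

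Among the lysosomal genes, CTSB and TFEB rose with prednisolone in both lines. On their brightest probe sets, the other 5 (TFE3, LAMP1, LAMP2, CTSD and MCOLN1) were called in neither. CTSB, which encodes the lysosomal cysteine protease cathepsin B, had log2 signals of 9.75, 9.88, 10.05 and 9.94 in treated cells labelled CASP1, against 9.46, 9.33, 9.22 and 9.33 in untreated ones (replicates 1 to 4). Its signals were 10.03, 9.84, 9.68 and 9.78 in treated control cells, against 8.73, 8.80, 8.88 and 8.82 in untreated ones. In each line every treated array lay above every untreated one, and the untreated cells labelled CASP1 lay between the groups of the control line. The rise was 0.57 (SE 0.091) or 1.49-fold in cells labelled CASP1 (adjusted p = 0.00052) and 1.02 (SE 0.091) or 2.03-fold in control cells (adjusted p = 2.8e-07), and untreated cells labelled CASP1 were 0.53 above untreated control cells (adjusted p = 0.00064). With prednisolone the lines differed by 0.07 (adjusted p = 0.66). Of its 4 probe sets, 3 were called higher in cells labelled CASP1 and 4 in control cells.

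TFEB, the transcription factor named as the main activator of lysosomal genes, had signals of 7.56, 7.45, 7.55 and 7.61 in treated cells labelled CASP1, against 7.31, 7.23, 7.22 and 7.13 in untreated ones. In control cells it had 7.76, 7.41, 7.53 and 7.49 with prednisolone, against 7.21, 6.97, 6.96 and 6.98 without. The groups did not overlap in either line. The rise was 0.32 (SE 0.089) in cells labelled CASP1 (adjusted p = 0.036) and 0.52 (SE 0.089) in control cells (adjusted p = 0.00044). The call in cells labelled CASP1 lay near the threshold. It ended without treated replicate 1 (0.32), 3 (0.32) or 4 (0.30) and without untreated replicate 2 (0.33), 3 (0.32) or 4 (0.29). The second TFEB probe set, with a mean signal of 2.83, differed by -0.06 in control cells. Without replicate 1 TFEB was called higher in untreated cells labelled CASP1 than in untreated control cells (0.22, adjusted p = 0.035), against 0.19 with all arrays (adjusted p = 0.2). TFE3, its relative, lay near the array medians, with 4.43, 4.71, 5.24 and 4.65 in treated and 4.88, 5.10, 5.21 and 4.70 in untreated cells labelled CASP1. In control cells it had 4.60, 4.39, 4.65 and 4.63 with prednisolone and 4.52, 4.70, 4.63 and 4.69 without, the groups overlapped in every comparison, and it was not called in any.

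LAMP1 and LAMP2, the abundant glycoproteins of the lysosomal membrane, differed between the lines in opposite directions. LAMP1 averaged 9.64 ± 0.2 in treated cells labelled CASP1, against 10.10 ± 0.13 in treated control cells (SD, n = 4), a difference of -0.46 (SE 0.098) with no overlap (adjusted p = 0.0034). Untreated cells labelled CASP1 had 9.53 ± 0.024, against 9.84 ± 0.092 in untreated control cells, a difference of -0.31 (adjusted p = 0.041). LAMP2 averaged 10.29 ± 0.055 in untreated cells labelled CASP1 and 9.95 ± 0.086 in untreated control cells, a difference of 0.34 (adjusted p = 0.0462). Both untreated calls were marginal, since each ended without any 1 of the 8 untreated arrays, with values of -0.33 to -0.26 for LAMP1 and 0.30 to 0.36 for LAMP2. With the mean of probe sets LAMP2 was not called (0.15, adjusted p = 0.33), nor was LAMP1 in untreated (-0.43, adjusted p = 0.18) or treated cells (-0.51, adjusted p = 0.087). The untreated LAMP1 call also ended without replicate 1 (-0.25, adjusted p = 0.0501). Of the 9 LAMP2 probe sets, 8 had the same sign in that comparison and 1, not the brightest, was called when adjusted over all probe sets. With prednisolone LAMP2 was 0.30 relative to control cells (adjusted p = 0.074), a difference called with a replicate block (adjusted p = 0.04) and without replicate 1 (0.42, adjusted p = 0.00086), while 1 dimmer probe set was called in the opposite direction, at -0.57. The prednisolone difference of LAMP2 in control cells was positive on all 9 probe sets. It ran from 0.09 on the brightest to 0.54, and 2 probe sets were called when adjusted over all probe sets. CTSD, the aspartic protease cathepsin D, and MCOLN1, the lysosomal calcium channel, differed by -0.12 to 0.07 in the 4 comparisons of groups and were not called.

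Of the 3 FOXO factors, FOXO1 was the one called with all 16 arrays and no replicate block. FOXO1 had signals of 9.77, 10.14, 10.22 and 10.23 in treated cells labelled CASP1, against 10.06, 10.21, 10.22 and 10.26 in untreated ones, a difference of -0.10 (adjusted p = 0.69). Signals in control cells were 10.16, 10.23, 10.20 and 10.29 with prednisolone, against 9.63, 9.85, 9.84 and 9.84 without, and the gene rose by 0.43 (SE 0.099) (adjusted p = 0.0057). The untreated control arrays were the low group, below every other array but treated replicate 1 of the cells labelled CASP1, and untreated cells labelled CASP1 were 0.39 higher than them (adjusted p = 0.011). As the mean of its 4 probe sets, the prednisolone difference in cells labelled CASP1 was 0.09, so its direction there depends on the probe set. FOXO3 had 7.78, 7.60, 7.81 and 7.92 in treated cells labelled CASP1 and 7.43, 7.76, 7.83 and 7.84 in untreated ones, which overlapped. Its signals in control cells were 7.92, 7.98, 7.97 and 7.85 with prednisolone, against 7.55, 7.59, 7.67 and 7.72 without, which did not overlap but missed the threshold (0.29, adjusted p = 0.0518). That difference was called with a replicate block (adjusted p = 0.034) and without replicate 1 (0.27, adjusted p = 0.038). FOXO4 had 6.91, 7.0, 7.09 and 6.92 in treated cells labelled CASP1 and 7.07, 7.03, 6.97 and 6.97 in untreated ones. It had 7.08, 7.02, 7.09 and 7.15 in treated control cells, against 6.88, 6.92, 6.98 and 6.92 in untreated ones (0.16, adjusted p = 0.17), and was called in no comparison.

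Of the 6 FOXO target genes, 1 (FBXO32) rose with prednisolone in cells labelled CASP1, joined by INSR without replicate 1, and 3 (FBXO32, INSR and CCNG2) rose in control cells. FBXO32, the ubiquitin ligase atrogin-1 of muscle wasting, had 5.94, 5.86, 5.72 and 5.91 in treated cells labelled CASP1, against 4.70, 4.81, 4.88 and 4.78 in untreated ones. In control cells it had 4.93, 5.02, 5.29 and 5.05 with prednisolone, against 3.91, 4.55, 4.22 and 3.91 without. All 4 groups were separate, with treated cells labelled CASP1 highest and untreated control cells lowest. The rise was 1.07 (SE 0.12), or 2.09-fold, in cells labelled CASP1 (adjusted p = 1.8e-05) and 0.93 (SE 0.12), or 1.9-fold, in control cells (adjusted p = 3.2e-05). The lines differed by 0.78 with prednisolone (adjusted p = 0.00025) and by 0.65 without (adjusted p = 0.0015). FBXO32 has 1 probe set here, and its untreated signals lay at or below the array medians. TRIM63, the other muscle ubiquitin ligase of this kind, differed by -0.05 in cells labelled CASP1 and -0.16 in control cells and was not called.

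INSR, the insulin receptor gene, had 8.70, 9.02, 9.25 and 9.24 in treated cells labelled CASP1, against 8.67, 8.64, 8.69 and 8.70 in untreated ones, and the difference of 0.38 was not called (adjusted p = 0.23). Its signals in control cells were 8.89, 9.65, 9.79 and 9.79 with prednisolone, against 8.33, 8.54, 8.63 and 8.64 without, and it rose by 1.0 (SE 0.17) or 1.99-fold (adjusted p = 0.0003). The groups did not overlap in either line, and replicate 1 was the low array of the treated control cells. Without replicate 1 the difference in cells labelled CASP1 was called (0.49, adjusted p = 0.00091). Treated cells labelled CASP1 differed from treated control cells by -0.48 (adjusted p = 0.057), which was called with a replicate block (adjusted p = 0.0091) and without replicate 1 (-0.57, adjusted p = 0.00014). All 5 INSR probe sets were called higher with prednisolone in control cells. CCNG2, a cyclin linked to withdrawal from the cell cycle, averaged 9.12 ± 0.14 in treated cells labelled CASP1, against 9.36 ± 0.12 in untreated ones, a difference of -0.25 (adjusted p = 0.16). It averaged 9.24 ± 0.1 in treated control cells, against 8.92 ± 0.13 in untreated ones, a rise of 0.32 (adjusted p = 0.029). That call ended without treated replicate 2 (0.30), 3 (0.33) or 4 (0.29) and without untreated replicate 1 (0.27), 3 (0.32) or 4 (0.33). Untreated cells labelled CASP1 were 0.44 above untreated control cells (adjusted p = 0.0038), and 3 of the 5 CCNG2 probe sets were called higher there. Between the treated lines the brightest was at -0.12 and not called. A dimmer CCNG2 probe set was called in the opposite direction, at 0.57 (adjusted p = 0.013 over all probe sets). SESN3, a sestrin that curbs mTORC1, had 4.70, 4.42, 4.46 and 4.72 in untreated cells labelled CASP1, against 3.78, 3.66, 3.75 and 3.87 in untreated control cells, and was higher there by 0.81 (SE 0.16) (adjusted p = 0.0025). With prednisolone it had 4.95, 4.48, 4.46 and 4.56 in cells labelled CASP1 and 3.87, 4.84, 4.0 and 4.29 in control cells, which overlapped. Its prednisolone difference in control cells, 0.48 with all arrays (adjusted p = 0.059), was called without replicate 1 (0.61, adjusted p = 0.013). IRS2, an adaptor of the insulin receptor, had the lowest prednisolone difference of the 39 genes in each line, -0.29 in cells labelled CASP1 and -0.32 in control cells, and was not called (adjusted p = 0.37 and 0.23). With a replicate block IRS2 was called lower in control cells (adjusted p = 0.034).

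**Figure D3:**
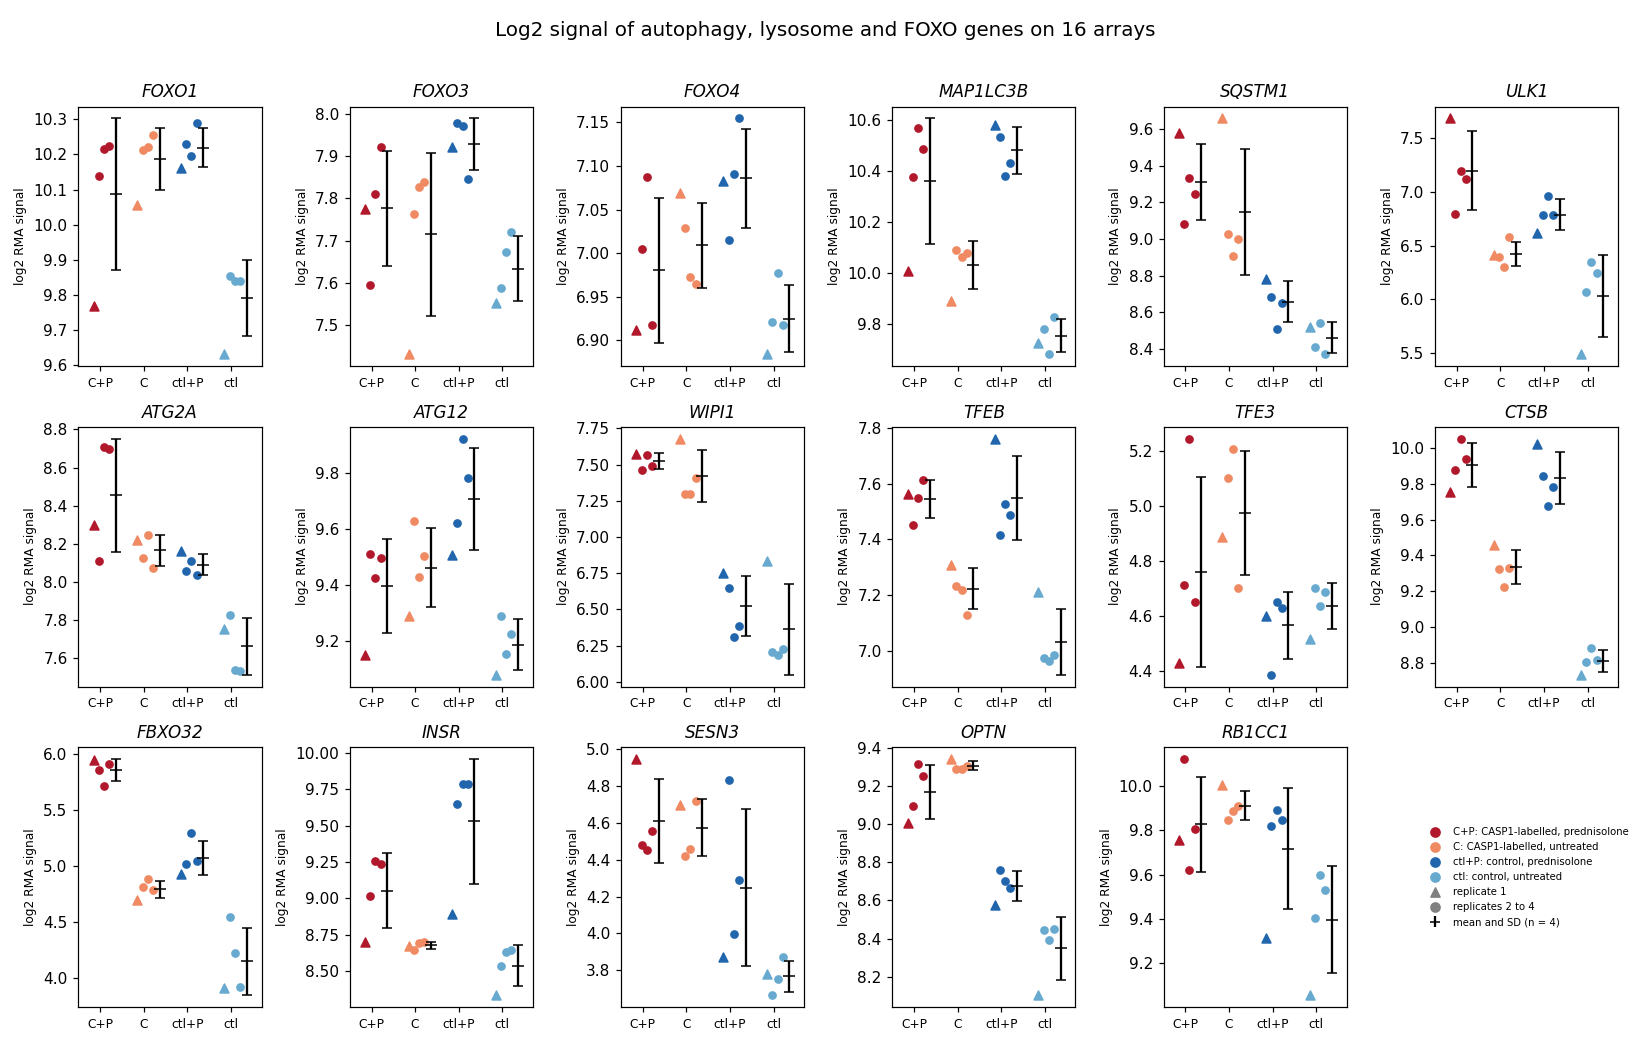
Log2 RMA signal (vertical axis of each panel) on every array for the 17 genes with values given per array, by group (horizontal axis), with triangles for replicate 1, circles for replicates 2 to 4 and bars for mean and SD (n = 4). CTSB, TFEB, ULK1 and FBXO32 lie higher with prednisolone in both lines without overlap, and WIPI1 and SQSTM1 separate the lines.

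In the initiation step, ULK1 was the 1 gene of 7 called for prednisolone, in both lines. ULK1, the kinase that starts autophagosome formation, had 7.69, 6.80, 7.19 and 7.12 in treated cells labelled CASP1, against 6.41, 6.39, 6.30 and 6.58 in untreated ones. In control cells it had 6.62, 6.79, 6.96 and 6.79 with prednisolone, against 5.48, 6.07, 6.34 and 6.24 without. Treated and untreated arrays did not overlap in either line, although replicate 1 was the highest treated array labelled CASP1 and the lowest untreated control array. The rise was 0.78 (SE 0.18), 1.71-fold, in cells labelled CASP1 (adjusted p = 0.011) and 0.76 (SE 0.18), 1.69-fold, in control cells (adjusted p = 0.0059). Its relative ULK2 had low signal (mean 3.40) and differed by 0.22 in cells labelled CASP1 and -0.11 in control cells.

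RB1CC1, the scaffold that holds the ULK1 complex together, separated the untreated lines. It had 10.0, 9.85, 9.89 and 9.91 in untreated cells labelled CASP1, against 9.06, 9.41, 9.60 and 9.53 in untreated control cells, and was 0.51 (SE 0.14) higher without overlap (adjusted p = 0.018). The call ended without replicate 1 of the cells labelled CASP1 (0.48) or of the control cells (0.40), and with the mean of probe sets (0.42, adjusted p = 0.055). Without all 4 arrays of replicate 1 its prednisolone difference in control cells was called (0.34, adjusted p = 0.032). With prednisolone it had 9.76, 10.12, 9.62 and 9.81 in cells labelled CASP1 and 9.31, 9.82, 9.89 and 9.85 in control cells, which overlapped. ULK2 was lower in untreated cells labelled CASP1, with a difference of -0.50 (adjusted p = 0.037), a call that ended without replicate 1 (-0.37) or 3 (-0.43) of those cells or replicate 2 (-0.50), 3 (-0.45) or 4 (-0.45) of the control cells. With the mean of its probe sets it was -0.13 and not called (adjusted p = 0.23). BECN1, the core of the lipid kinase complex, its partners ATG14 and UVRAG, which direct it to autophagosomes and endosomes, and its regulator AMBRA1 were called in no comparison with all 16 arrays. Without replicate 1, AMBRA1 was called lower in untreated cells labelled CASP1 than in untreated control cells (-0.37, adjusted p = 0.012). BECN1 was then called higher in that comparison (0.23, adjusted p = 0.031) and with prednisolone in control cells (0.23, adjusted p = 0.033). A dimmer UVRAG probe set was called, against the sign of the brightest, at 0.84 between the treated lines and -0.52 with prednisolone in control cells. With all arrays, the differences of these 4 genes on their brightest probe sets lay between -0.25 and 0.23 in the 4 comparisons of groups.

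Among the 4 genes of membrane supply, ATG2A and WIPI2 rose with prednisolone in control cells, and WIPI1 separated the lines. WIPI1, which binds the lipid mark of the forming membrane, had 7.68, 7.30, 7.30 and 7.41 in untreated cells labelled CASP1, against 6.83, 6.21, 6.18 and 6.23 in untreated control cells. With prednisolone it had 7.57, 7.46, 7.56 and 7.49 in cells labelled CASP1, against 6.75, 6.65, 6.31 and 6.39 in control cells. Every array labelled CASP1 lay above every control array, including the high replicate 1 of the untreated control cells. The lines differed by 1.0 (SE 0.14) with prednisolone (adjusted p = 7.4e-05) and by 1.06 (SE 0.14) without (adjusted p = 4.8e-05), and both WIPI1 probe sets were called in each. Prednisolone differences of WIPI1 were 0.10 in cells labelled CASP1 and 0.16 in control cells, neither called.

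ATG2A, which carries lipids into the growing membrane, had 8.30, 8.11, 8.71 and 8.70 in treated cells labelled CASP1 and 8.22, 8.13, 8.25 and 8.07 in untreated ones, which overlapped (0.29, adjusted p = 0.2). Control cells had 8.16, 8.06, 8.11 and 8.04 with prednisolone, against 7.75, 7.83, 7.54 and 7.53 without, and ATG2A rose without overlap by 0.43 (SE 0.12) (adjusted p = 0.02). The call ended without treated replicate 3 (0.42) or untreated replicate 3 (0.39) or 4 (0.38), and with the mean of probe sets (0.22, adjusted p = 0.11). Of its 4 probe sets 2 had the same values, and the others differed by -0.0055 and 0.020 in control cells. The lines differed by 0.36 with prednisolone, with overlap (adjusted p = 0.045), and by 0.50 without (adjusted p = 0.0075), the second of which ended with the mean of probe sets (0.25, adjusted p = 0.065). The treated call ended without control replicate 1 (0.39), 2 (0.35), 3 (0.37) or 4 (0.35) or CASP1-labelled replicate 3 (0.28) or 4 (0.28). WIPI2, the relative of WIPI1 that recruits the conjugation machinery, averaged 9.65 ± 0.095 in treated control cells, against 9.30 ± 0.072 in untreated ones, a rise of 0.35 (adjusted p = 0.027). Its call ended without treated replicate 2 (0.36), 3 (0.33) or 4 (0.32) or untreated replicate 2 (0.32) or 3 (0.34), although all 3 of its probe sets were called higher. Its difference in cells labelled CASP1 was 0.32 (adjusted p = 0.081). ATG9A, a lipid scramblase of small vesicles, was called in no comparison.

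Of the 5 genes of the conjugation system, 0 were called for prednisolone in cells labelled CASP1, where 6.34% of all genes were called. In control cells 4 were called higher, against 5.73% of all genes, with ATG5 counted by its brightest probe set alone. ATG12, the ubiquitin-like protein joined to ATG5, had 9.15, 9.51, 9.42 and 9.49 in treated cells labelled CASP1 and 9.29, 9.63, 9.43 and 9.5 in untreated ones, which overlapped (-0.07, adjusted p = 0.83). Control cells had 9.51, 9.62, 9.92 and 9.78 with prednisolone, against 9.08, 9.29, 9.15 and 9.22 without, and ATG12 rose by 0.52 (SE 0.11) without overlap (adjusted p = 0.0023). Between the lines ATG12 differed by -0.31 with prednisolone (adjusted p = 0.056) and 0.27 without (adjusted p = 0.11). Both were called with a replicate block (adjusted p = 0.015 and 0.034) and without replicate 1 (-0.30, adjusted p = 0.024, and 0.30, adjusted p = 0.024). ATG16L1, which docks the ATG12 and ATG5 conjugate on the membrane, averaged 6.48 ± 0.064 in treated control cells, against 6.07 ± 0.14 in untreated ones (0.40, adjusted p = 0.0067). ATG4A, a protease that trims Atg8 proteins, averaged 7.52 ± 0.1 against 7.16 ± 0.074 in the same groups (0.36, adjusted p = 0.004), and was 0.35 higher in untreated cells labelled CASP1 than in untreated control cells (adjusted p = 0.0066). The second ATG4A probe set had the opposite sign in that comparison of the lines, at -0.13, and the mean of both was not called (0.11, adjusted p = 0.3). In cells labelled CASP1 the prednisolone differences were 0.26 for ATG16L1 (adjusted p = 0.14) and 0.23 for ATG4A (adjusted p = 0.11). Against the responses of control cells these were -0.14 and -0.13, not called in limma's test (adjusted p = 0.8 and 0.78). ATG7, the activating enzyme of both conjugation reactions, was called in no comparison (0.18 in cells labelled CASP1 and -0.03 in control cells with prednisolone).

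The probe sets of ATG5 disagreed. On the brightest, ATG5 averaged 8.96 ± 0.13 in treated control cells, against 8.62 ± 0.18 in untreated ones, a rise of 0.34 (adjusted p = 0.031), while the 3 probe sets ranged from -0.44 to 0.38, with 1 called in the opposite direction. The call also ended without treated replicate 2 (0.32), 3 (0.32) or 4 (0.31) or untreated replicate 1 (0.25) or 3 (0.36). In treated cells labelled CASP1 ATG5 was -0.38 relative to treated control cells on the brightest probe set (adjusted p = 0.015), and 0.14 as the mean of its probe sets. In limma's test over all probe sets 2 were called lower there. The dimmest was called higher, at 1.15 (adjusted p = 1.5e-06). Between the untreated lines the dimmest was also called higher (0.75, adjusted p = 0.00013), with the brightest at -0.11 and not called. The direction of ATG5 between the lines thus depends on the probe set.

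Of the 3 Atg8 family genes, MAP1LC3B was the one called with all 16 arrays. MAP1LC3B, which encodes LC3B, had 10.01, 10.38, 10.57 and 10.49 in treated cells labelled CASP1, against 9.89, 10.09, 10.06 and 10.08 in untreated ones. In control cells it had 10.58, 10.53, 10.38 and 10.43 with prednisolone, against 9.72, 9.78, 9.68 and 9.83 without. Treated replicate 1 of the cells labelled CASP1 lay among their untreated arrays, and the control groups did not overlap. The difference was 0.33 (SE 0.1) in cells labelled CASP1 (adjusted p = 0.075), and in control cells the gene rose by 0.73 (SE 0.1), 1.66-fold (adjusted p = 7.3e-05), with all 4 probe sets called. Without replicate 1 the difference in cells labelled CASP1 was called (0.40, adjusted p = 0.0027), as was that between the untreated lines (0.31, adjusted p = 0.0076). GABARAPL2 and GABARAPL1, of the GABARAP branch, were not called, with prednisolone differences of -0.08 and 0.39 in cells labelled CASP1 and -0.07 and 0.10 in control cells, although GABARAPL2 was called higher in treated cells labelled CASP1 than in treated control cells without replicate 1 (0.23, adjusted p = 0.034).

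Of the 4 cargo receptors and adaptors, 3 (SQSTM1, OPTN and TP53INP2) were higher in cells labelled CASP1 in both conditions. SQSTM1, the receptor p62 that binds ubiquitinated cargo, had 9.66, 9.03, 8.91 and 9.0 in untreated cells labelled CASP1, against 8.52, 8.41, 8.54 and 8.37 in untreated control cells. With prednisolone it had 9.58, 9.08, 9.33 and 9.25 in cells labelled CASP1, against 8.78, 8.68, 8.51 and 8.65 in control cells. Every array labelled CASP1 lay above every control array, with replicate 1 highest in both groups labelled CASP1. The lines differed by 0.65 (SE 0.14), 1.57-fold, with prednisolone (adjusted p = 0.0033) and by 0.69 (SE 0.14), 1.61-fold, without (adjusted p = 0.0025), while prednisolone differences were 0.16 and 0.20 and not called.

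OPTN, a receptor for bacteria and damaged mitochondria, had 9.34, 9.29, 9.29 and 9.31 in untreated cells labelled CASP1, against 8.10, 8.45, 8.39 and 8.45 in untreated control cells, and was 0.96 (SE 0.093) or 1.95-fold higher (adjusted p = 2.2e-06). With prednisolone it had 9.01, 9.10, 9.32 and 9.25 in cells labelled CASP1, against 8.57, 8.76, 8.70 and 8.67 in control cells, a difference of 0.49 (SE 0.093) (adjusted p = 0.0012). The lines did not overlap in either condition. With the mean of its 3 probe sets the treated difference was not called (0.28, adjusted p = 0.16), the dimmest probe set being at -0.11. With prednisolone OPTN rose in control cells by 0.33 (adjusted p = 0.022), a call that ended without treated replicate 2 (0.30) or 3 (0.32) or untreated replicate 1 (0.25) and with the mean of probe sets (0.33, adjusted p = 0.1), and in cells labelled CASP1 it differed by -0.14 (adjusted p = 0.49). TP53INP2, a nuclear protein that brings LC3 to autophagosomes, averaged 7.20 ± 0.16 in untreated cells labelled CASP1, against 6.76 ± 0.061 in untreated control cells (0.44, adjusted p = 0.016). With prednisolone it averaged 7.38 ± 0.28 in cells labelled CASP1, against 6.95 ± 0.079 in control cells (0.43, adjusted p = 0.018). The untreated call ended without CASP1-labelled replicate 4 (0.38), and the treated call without CASP1-labelled replicate 3 (0.37) or 4 (0.35) or control replicate 1 (0.39). NBR1, a receptor built like SQSTM1, was called in no comparison.

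The interaction, which is the prednisolone response of cells labelled CASP1 minus that of control cells, tested whether the responses differed. None of the 39 genes was called in it with all 16 arrays, equal weights and no block in limma's test, where 0.888% of all genes were called, and 7 of the 39 had an unadjusted p under 0.05, all with negative values, as had 10.3% of all genes in either direction. Over the other settings tried, limma called 0 to 5 of the 39 lower. These counts rest on 1 value per gene. In limma's test over all probe sets, 1 dimmer LAMP2 probe set was called in the interaction (-0.74, adjusted p = 0.033). The lowest adjusted p was that of CCNG2, with an interaction of -0.57 (SE 0.13) and adjusted p = 0.057 (95% interval -0.85 to -0.29). ATG12 had -0.59 (SE 0.15) (adjusted p = 0.088, interval -0.91 to -0.27) and FOXO1 -0.53 (SE 0.14) (adjusted p = 0.1, interval -0.82 to -0.23). INSR had the lowest value, -0.62 (SE 0.23) (adjusted p = 0.31, interval -1.11 to -0.13). Without replicate 1 these 4 genes were called lower, at -0.49 for CCNG2, -0.59 for ATG12, -0.43 for FOXO1 and -0.65 for INSR (adjusted p = 0.033, 0.015, 0.015 and 0.0052), where 1.29% of all genes were called lower. Without replicate 1 of the treated control cells alone, ATG12 (-0.65), INSR (-0.83) and CCNG2 (-0.61) were called. FBXO32 (0.14, interval -0.23 to 0.51) and ULK1 (0.02, interval -0.50 to 0.54) had values near 0 with intervals that hold differences in both directions. With a replicate block on all 16 arrays FOXO1, ATG12 and CCNG2 were called (adjusted p = 0.021, 0.021 and 0.017), where 0.673% of all genes were called lower. With array weights FOXO1, ATG12, INSR, CCNG2 and OPTN were called (-0.35 for OPTN, adjusted p = 0.04). CCNG2 alone was called after quantile normalization, without the dimmest 30% of genes, and with trend and robust. For other genes called in control cells and not in cells labelled CASP1, no setting tried called a difference in response.

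**Figure D4:**
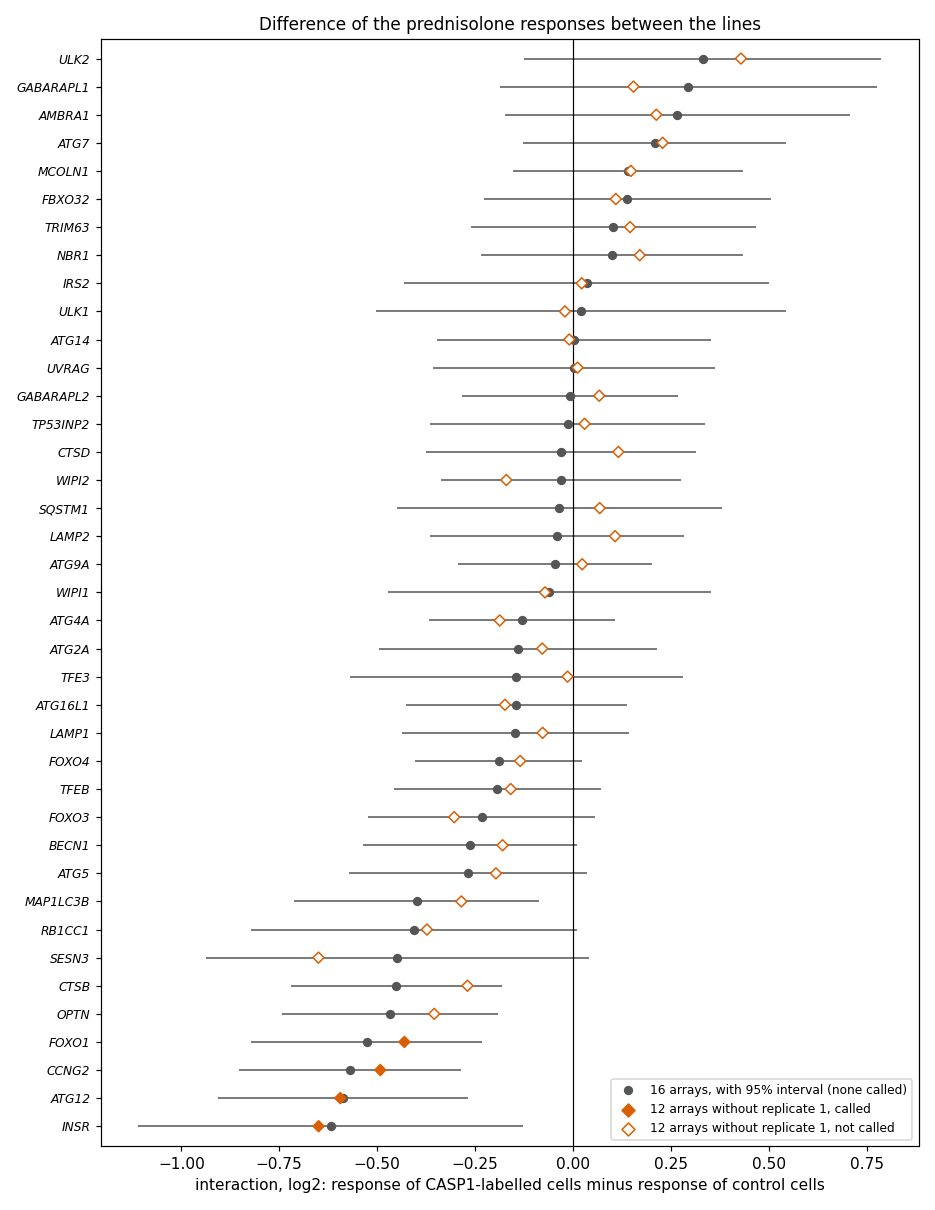
Interaction (horizontal axis, log2, response of cells labelled CASP1 minus that of control cells) for each of the 39 genes (vertical axis), with grey points and 95% intervals from 16 arrays and orange diamonds from 12 arrays without replicate 1. INSR, ATG12, CCNG2 and FOXO1 are the 4 filled diamonds, called at an adjusted p under 0.05.

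Across arrays, some of the 39 genes varied together within groups. The deviations of ATG5 and RB1CC1 from their group means correlated with r = 0.93 over 16 arrays and 0.85 over the 12 arrays without replicate 1, and those of BECN1 and LAMP1 with 0.85 and 0.88. GABARAPL1 and GABARAPL2, the pair with the lowest value, had -0.82 over 16 arrays and -0.55 without replicate 1. Other pairs with high or low values weakened more without replicate 1 than the 2 positive pairs named. FOXO1 and LAMP2 went from 0.92 to 0.61, IRS2 and INSR from 0.85 to 0.39, and MAP1LC3B and AMBRA1 from -0.76 to 0.11. Much of this covariation thus rests on replicate 1. The values of a pair share their arrays, and the pairs were chosen for their correlation.

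Of 155 measured genes on 8 lists of the same pathways, prednisolone raised 12 and lowered 3 in cells labelled CASP1 (2.99% and 3.35% of all genes), and raised 24 and lowered 10 in control cells (5.73% and 8.43% of all genes). Of 16 further genes of initiation, nucleation and lipid transfer 2 rose in control cells, RUBCN, an inhibitor of autophagosome maturation, by 0.57 and WDR45, a relative of the WIPI proteins, by 0.41, and 0 were called in cells labelled CASP1. Of 10 further Atg8 and conjugation genes MAP1LC3C rose in both lines, by 1.54 in cells labelled CASP1 and 0.76 in control cells, and ATG4C fell in control cells, at -0.39. Of 15 further cargo receptors, NCOA4, the ferritin receptor, was the one called, at 0.40 in control cells. Of 38 further lysosomal genes 3 were higher and 2 lower in cells labelled CASP1, and 5 higher and 3 lower in control cells, with LAPTM5, a lysosomal membrane protein of blood cells, at 0.40 and 0.81 and the protease gene CTSC at -0.51 and -0.96. Of 16 proton pump genes ATP6AP1 was the one called, at 0.28 in control cells.

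Further lists held genes that sense nutrients or growth factors upstream of ULK1, TFEB and FOXO, and further FOXO targets. PIK3IP1, KLF2 and TXNIP, named for their size, rose more in both lines than any of the 39 genes. The lists as wholes did not in control cells. Their medians there were -0.07 for nutrient sensing, 0.06 for upstream kinases and 0.14 for FOXO targets, against 0.21 for the 39 genes. In cells labelled CASP1 they were 0.09, 0.12 and 0.05, against 0.09. With prednisolone 2.99% of all genes were higher and 3.35% lower in cells labelled CASP1, and 5.73% higher and 8.43% lower in control cells. The counts below, on short lists, stand beside those shares. Of 29 genes of lysosomal nutrient sensing 2 were higher and 0 lower in cells labelled CASP1, and 5 higher and 3 lower in control cells. DDIT4, an inhibitor of mTORC1, rose by 1.05 in cells labelled CASP1 and 1.11 in control cells, and SESN1 by 0.79 and 0.91. Of 9 upstream kinases and their partners 1 was higher and 0 lower in cells labelled CASP1, and 3 higher and 1 lower in control cells. PIK3IP1, which inhibits the kinase upstream of AKT, rose by 3.48 and 4.28. Of 22 further FOXO targets 5 were higher and 1 lower in cells labelled CASP1, and 6 higher and 2 lower in control cells. KLF2, a transcription factor of quiescent lymphocytes, rose by 3.04 and 4.41, TXNIP, an inhibitor of glucose uptake, by 1.19 and 3.82, and BCL2L11, the cell death activator BIM, by 0.59 and 1.21, in each case in cells labelled CASP1 and then in control cells. IL7R, the interleukin 7 receptor gene, rose by 1.56 in cells labelled CASP1 and 0.41 in control cells. S1PR1, a receptor for lymphocyte egress, fell, with differences of -0.76 and -0.76. Between the untreated lines, GAA, the lysosomal glucosidase, was 0.78 higher and the cation channel gene TPCN1 0.72 higher in cells labelled CASP1, and RETREG1, a receptor for endoplasmic reticulum, was lower at -1.17. Over the 155 genes 23 were higher and 12 lower in untreated cells labelled CASP1 (5.87% and 8.2% of all genes), and 18 were higher and 18 lower in treated ones (7.88% and 8.52%).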

How the data were processed

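The deposited table holds log2 probe set signals that the authors made with RMA, per the submitters' processing notes, for 49395 probe sets on 16 arrays, and 0 columns belonged to no sample. RMA sets arrays to a common scale, so total RNA per cell was not measured, and the number of arrays limits the precision. Of the probe sets 44988 had 1 gene, 1832 several, 2473 none and 102 were controls; RefSeq held 44961 of the 44988 by Entrez identifier, and 0 symbols changed. The brightest single-gene probe set over all arrays stood for its gene (18132 genes).

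The fit to each gene used limma 3.58.1 (R 4.3.3), 4 group means in 1 model over 16 arrays (12 residual and 5.46 prior degrees of freedom), two-sided, with Benjamini-Hochberg adjustment over all genes and no replicate block. The test was tried on simulated data with independent noise on each array. That trial held no replicate 1 difference and no shared replicate structure, so it cannot show how the test behaves with them. Values per array are given for FOXO1, FOXO3, FOXO4, TFEB, TFE3 and genes called with a log2 difference of at least 0.5 in any comparison, and up to 4 called genes of a list are named. The members and lists were chosen with earlier results of these data known. Deviations of same-numbered arrays from their group means correlated above 0.1 across genes in all 4 pairs of the untreated lines (0.15 to 0.43), which the numbers are taken to pair, and in the other comparisons at least 1 pair lay below 0.1 (lowest -0.12, highest 0.51); values with a replicate block stand where they change a call. Between treated and untreated arrays of the same line that limit was narrowly missed, at 0.096 in cells labelled CASP1 and 0.076 in control cells. By mean correlation with the arrays of other groups, 7 of 16 arrays lay closest to those of their own number, so the pairing is uncertain. Nothing in the labels states that replicates are independent cultures. The p-values then reflect only the spread between these arrays, which may be technical. Alternatives were quantile normalization, centring on the 75th percentile, a filter on the dimmest 30%, the mean of probe sets, trend with robust, array weights, only the groups compared, a replicate block, and leaving out arrays.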

Additional observations from a re-analysis of the deposited data

Results flagged for a closer look

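In 8 of 68 groups of 4 arrays (17 genes in 4 groups), the highest or lowest array lay far from the other 3, with a gap to the nearest above Dixon's 95% critical share of the group's range. Chance gives such a gap in about 1 of 20 groups. The 8 values lay on 3 arrays, replicate 1 of the untreated cells labelled CASP1, the treated control cells and the untreated control cells, and values on 1 array are not independent. In cells labelled CASP1 they were those of untreated replicate 1 for MAP1LC3B (9.89, nearest 10.06) and SQSTM1 (9.66, nearest 9.03). In control cells they were those of untreated replicate 1 for FOXO1 (9.63, nearest array 9.84), WIPI1 (6.83, nearest 6.23), TFEB (7.21, nearest 6.98) and OPTN (8.10, nearest 8.39), and treated replicate 1 for INSR (8.89, nearest 9.65) and RB1CC1 (9.31, nearest 9.82). These 3 arrays are among the 4 that were left out together for the second set of counts.

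Outside the 39 genes, 6 of the 155 measured genes on the related lists were called in limma's test of the interaction, cells labelled CASP1 minus control cells. Of these, 2 were called higher and 4 lower, where 0.524% of all genes were called higher and 0.364% lower. The values were -2.63 for TXNIP (adjusted p = 1.0e-07), -1.36 for KLF2 (adjusted p = 0.038), -0.80 for PIK3IP1 (adjusted p = 0.038) and -0.47 for RRAGC, a GTPase of lysosomal nutrient sensing (adjusted p = 0.038). IL7R had 1.15 (adjusted p = 8.3e-05) and BCL6, a repressor of B-cell differentiation, 1.49 (adjusted p = 0.0498, at the threshold). TXNIP, KLF2, PIK3IP1 and IL7R were called higher in both lines. RRAGC had 0.21 in cells labelled CASP1, not called, and 0.68 in control cells, called higher. BCL6 had 0.90 in cells labelled CASP1, called higher, and -0.59 in control cells, not called.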

How the results depend on the processing

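Of the calls, 3 of 4 for prednisolone in cells labelled CASP1 (ULK1, CTSB, FBXO32) and 10 of 15 in control cells held in every setting tried, as did 3 of 8 between the treated lines (SQSTM1, WIPI1, FBXO32) and 8 of 15 between the untreated lines. With array weights 11 genes were called higher with prednisolone in cells labelled CASP1, and 3 to 7 without 1 array. Shares of all genes are given for the main fit, the fit without replicate 1 and the replicate block. Counts of members in the other settings have no such share beside them, so they cannot be set against all genes. The median prednisolone difference in control cells was 0.28 after quantile normalization, 0.24 without the dimmest 30% of genes or without replicate 1, 0.18 with the mean of probe sets, and 0.19 to 0.25 without 1 array. Between the untreated lines, the genes called lower were 1 after quantile normalization, 75th percentile centring, the filter or with the 2 groups alone, 0 with the mean of probe sets, 4 with array weights and 0 to 1 without 1 array, and the median was 0.23 with 75th percentile centring and 0.15 with the mean of probe sets. Between the treated lines 4 were lower with the filter, trend and robust, array weights, the replicate block (10.5% of all genes) or without replicate 1, and 2 to 4 without 1 array. The interaction called 1 gene lower after quantile normalization, the filter or trend and robust, 5 with array weights, 4 without replicate 1, 3 with the replicate block and 0 to 3 without 1 array.

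The replicate block matched arrays by number. With the replicate block, 16 genes were called higher and 1 (IRS2) lower with prednisolone in control cells (7.1% and 10.4% of all genes). CCNG2 (-0.57), ATG12 (-0.59) and FOXO1 (-0.53) were then called lower in the interaction (0.673% of all genes). Directions that turned were those of small or discordant values. FOXO1 with prednisolone in cells labelled CASP1 was 0.089 with the mean of probe sets and -0.15 to 0.0067 without 1 array. Between the treated lines TFEB was 0.034 after quantile normalization, 0.032 with percentile centring, 0.062 with the mean of probe sets, 0.061 without replicate 1, 0.067 with array weights and -0.048 to 0.067 without 1 array; with the mean of probe sets ATG5 was 0.14 and FOXO1 0.036. The interaction was 0.026 for ATG2A, 0.0050 for ATG16L1 and 0.062 for TFEB with the mean of probe sets, and -0.021 for ULK1 without replicate 1; without 1 array it was -0.14 to 0.20 for ULK1 and -0.13 to 0.073 for WIPI2. The cause of these shifts was not tested. The table gives no detection calls, so differences of genes near or below the array medians (SESN3, ULK2, TFE3, untreated FBXO32) may hold background signal.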
